A study of Rattus norvegicus with 6 samples.

Results

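The genes described here make cholesterol and fatty acids or control how much of them a cell makes. The set holds 35 genes in pathway order, with 18 enzymes of the sterol arm, 7 regulators and sterol transporters, and 10 enzymes of the fatty acid arm. A gene was taken from every probe set that the platform annotation maps to its symbol alone, which gave 58 probe sets for 34 of the 35 genes, out of 31042 probe sets and 14217 genes in all. Hmgcs1 is not analysed here. Levels are log2 values, differences are TDECC minus TDESM on that scale, so that a difference of 1 is a doubling, and a gene with several probe sets was read through the brightest one on average unless another is named.

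RNA came from 2 clonal cell strains of Fischer 344 rats, with 3 arrays each. Both strains were derived from tumours that grew after BDEsp cells, rat cholangiocytes that had transformed spontaneously, were placed in the bile duct of young adult males. BDEsp-TDECC, here TDECC, is the cholangiocarcinoma strain, that is, bile duct cancer cells. BDEsp-TDESM, here TDESM, is a cancer-associated fibroblastic strain that the labels characterise by overexpressed Acta2, a smooth muscle actin. The labels give all 6 samples the same growth text, a collagen gel co-culture, and the same treatment text naming the TGF-beta inhibitors SB 431542 and LY2157299, without saying which cultures received them, so neither was compared. Each strain is 1 clone and no label tells whether separate cultures were used for its arrays. The tests therefore measure only how these arrays spread.

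The strain labels were checked on marker genes. Krt19, a keratin of bile duct cells, was at 14.33 in TDECC and 3.58 in TDESM, and Acta2 was at 6.61 and 11.60. All 8 bile duct markers were higher in TDECC and all 8 fibroblast markers were lower there. Of 14217 genes, 42.7% passed the threshold used throughout, a Benjamini-Hochberg adjusted p below 0.05 in limma: 20.6% were higher and 22.1% lower in TDECC. A count of members must be read against those shares. An exact permutation test of 3 against 3 arrays cannot go below p = 0.1, so for single genes only the limma values are given. TDECC arrays varied more than TDESM arrays, with a median SD over genes of 0.244 against 0.120.

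Cholesterol is built from acetyl-CoA through mevalonate, isoprenoid diphosphates, squalene and lanosterol, and then by a long series of changes to the sterol ring. Fatty acids start from the same acetyl-CoA and are then lengthened and desaturated. Most of these enzymes share a control: the membrane-bound transcription factors SREBP, encoded by Srebf1 and Srebf2, are escorted by Scap to the Golgi apparatus when sterols are scarce and held back by the Insig proteins when sterols are plentiful. In the liver the pathway also supplies the sterols of bile, whereas proliferating cells use it for membranes.

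Every measured enzyme of the sterol arm was higher in TDECC. All 17 passed the threshold, against 20.6% of all genes, and none was lower. The differences ran from 0.70 for Msmo1 to 4.51 for Tm7sf2, with a median of 1.11 against a median of 0.00 over all genes (-0.003 before rounding). At least a doubling was called for 12 of the 17, against 12.1% of all genes, and the other 5 lay below it. For all 17 the 3 TDECC values lay above the 3 TDESM values, which held for 26.4% of all genes. The higher level was thus shared by the 17 measured steps, and for most of them it was between 1.63-fold and 2.81-fold; Idi1, Fdft1, Tm7sf2 and Dhcr7 lay above that. The arrays were scaled to equal distributions, and centring each on 10 housekeeping genes moved the median gene by 0.39, so that 75% of all calls were higher in TDECC in place of 48.3%. Centring on added poly-A control transcripts, which read 7.22 to 7.65 in TDECC and 8.34 to 9.03 in TDESM, moved the median gene by 1.22 and made 92.4% of calls higher. Whether these controls were added in proportion to total RNA is not stated, so this shift may be one of added amount. Both centrings raised the difference of every gene by the same amount, so the 17 sterol calls, all kept, could hardly be lost. Adjusted p-values with these centrings carry the same shift, and low ones are no further evidence for a gene. The share of all genes called higher rose from 20.6% to 44.3% and 76.5%. The sterol median moved with the shift, to 1.51 and 2.34. Differences below use the values as deposited, in which the median gene sits at 0.

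**Figure D1:**
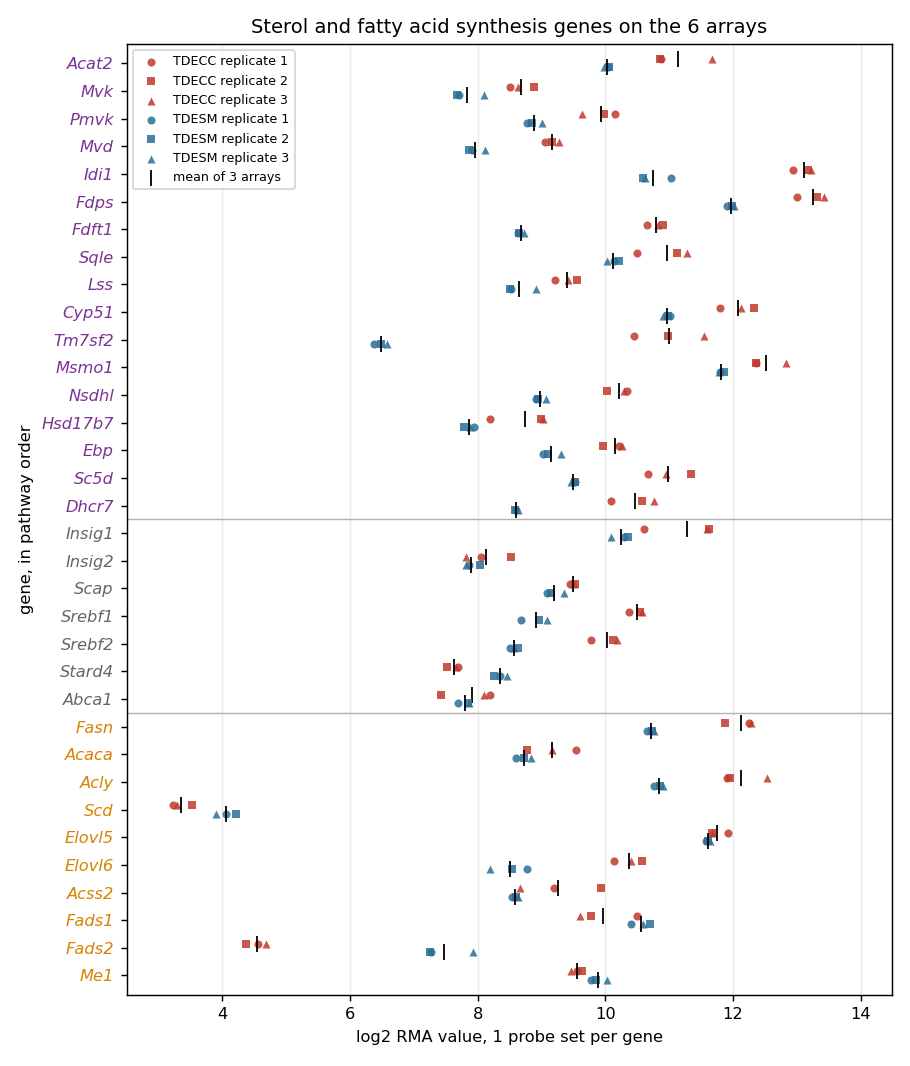
Log2 RMA value of each of the 34 measured genes on the 6 arrays, 1 probe set per gene, in pathway order; red is TDECC, blue is TDESM, the marker shape is the replicate number and black ticks are the means of 3 arrays. For the 17 sterol enzymes at the top every red point lies to the right of every blue one, whereas Scd, Fads1, Fads2 and Me1 at the bottom have their TDECC mean to the left.

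Among the enzymes from acetyl-CoA to squalene, Idi1 and Fdft1 had the largest differences, and the others lay between 0.85 and 1.28. Acat2, the thiolase that joins acetyl-CoA units, read 10.88, 10.85 and 11.67 on the TDECC arrays and 10.04, 10.06 and 9.98 on the TDESM arrays, a difference of 1.11 (SE 0.23). TDECC replicate 3 was the high one and its TDESM arrays were nearly equal. The kinases Mvk and Pmvk, which phosphorylate mevalonate, differed by 0.85 (SE 0.17) and 1.05 (SE 0.17). Mvd, the decarboxylase that follows them, differed by 1.20 (SE 0.13). These were differences of about 2-fold, each larger than the spread within either strain.

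Idi1, the isomerase that makes the reactive isoprenoid unit, read 12.94, 13.18 and 13.23 in TDECC and 11.03, 10.59 and 10.62 in TDESM. It differed by 2.37 (SE 0.17, limma adjusted p = 3.49e-05), a 5.17-fold difference, and its second probe set gave 1.92. The groups were far apart, since the gap between them exceeded the range within either. Fdps, which makes farnesyl diphosphate, was at 13.25 ± 0.21 in TDECC and 11.97 ± 0.06 in TDESM (SD, n = 3 each), a difference of 1.28. Fdft1, squalene synthase and the first step used for sterols alone, read 10.66, 10.91 and 10.83 in TDECC and 8.64, 8.65 and 8.73 in TDESM. This was a 4.37-fold difference (2.13, SE 0.12, limma adjusted p = 1.16e-05), with little spread in either strain.

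From squalene to lanosterol and its demethylation the differences were smaller. Sqle, squalene epoxidase and a rate-limiting enzyme, read 10.50, 11.12 and 11.28 in TDECC and 10.14, 10.21 and 10.02 in TDESM. The first TDECC array came close to the TDESM values, and the difference was 0.84 (SE 0.21, limma adjusted p = 0.0168). Sqle did not pass when TDESM replicate 1 was left out (0.85, adjusted p = 0.0555), nor when replicate 3 was (0.79, adjusted p = 0.0674). Over all alternatives its adjusted p ran from 9.62e-08, with poly-A centring, to 0.0674. Lss, which closes the ring to lanosterol, differed by 0.75 (SE 0.16), though its other probe set gave only 0.27 and did not pass. Cyp51, the lanosterol demethylase, differed by 1.11 (SE 0.16) by a probe set whose suffix marks it as shared with other transcripts, and by 0.86 by its other one.

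The largest difference of the whole set lay at the next step. Tm7sf2, a sterol reductase that acts after Cyp51, read 10.45, 10.99 and 11.54 on the TDECC arrays and 6.38, 6.48 and 6.58 on the TDESM arrays. That is a 22.8-fold difference (4.51, SE 0.27, limma adjusted p = 1.40e-05). The TDESM mean of 6.48 was near the 6.13 of Ttr, a liver gene, in that strain. Without detection calls it is not shown to be above background, so the fold is one of array values only. Even the lowest TDECC value of Tm7sf2 was far above its highest TDESM value, and leaving out any 1 array kept the difference between 4.24 and 4.79. Lbr, a nuclear membrane protein with the same reductase activity that is outside the set and was looked up after the Tm7sf2 values were seen, was at 7.78 ± 0.60 in TDECC and 7.55 ± 0.20 in TDESM (SD, n = 3 each). It did not pass the threshold (0.23, limma adjusted p = 0.590), and without TDECC replicate 3 its sign turned, to -0.11.

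The remaining steps, which trim and reduce the sterol ring, were all higher in TDECC. Msmo1, a methyl sterol oxidase, was the least changed of the arm at 0.70 (SE 0.16, limma adjusted p = 0.0105). Nsdhl, the dehydrogenase that works with it, read 10.34, 10.03 and 10.29 in TDECC and 8.92, 8.94 and 9.07 in TDESM, a difference of 1.24 (SE 0.13) that its other probe set put at 1.14. Hsd17b7, a ketoreductase, read 8.2, 9.0 and 9.02 in TDECC and 7.94, 7.79 and 7.88 in TDESM. Its first TDECC array was nearer to the TDESM arrays than to the other TDECC arrays. The difference of 0.87 (SE 0.23, limma adjusted p = 0.0212) did not pass when TDECC replicate 2 or 3 was left out (adjusted p = 0.0583 and 0.0584), when any TDESM array was, in order of replicate (adjusted p = 0.0586, 0.0795 and 0.0690) or with the mean of both probe sets (0.76, adjusted p = 0.0977). Over all alternatives its adjusted p reached down to 6.46e-08, with poly-A centring.

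Ebp, a sterol isomerase, differed by 1.0 (SE 0.14). Sc5d, a sterol desaturase, read 10.67, 11.35 and 10.95 in TDECC and 9.52, 9.52 and 9.46 in TDESM, a difference of 1.49 (SE 0.18), and its other probe sets gave 1.91 and 2.29. All 3 probe sets of Sc5d thus passed with the same sign. Dhcr7, the reductase that yields cholesterol, read 10.09, 10.57 and 10.76 in TDECC and 8.60, 8.58 and 8.63 in TDESM. It differed by 1.87 (SE 0.18, limma adjusted p = 2.09e-04), a 3.66-fold difference.

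**Figure D2:**
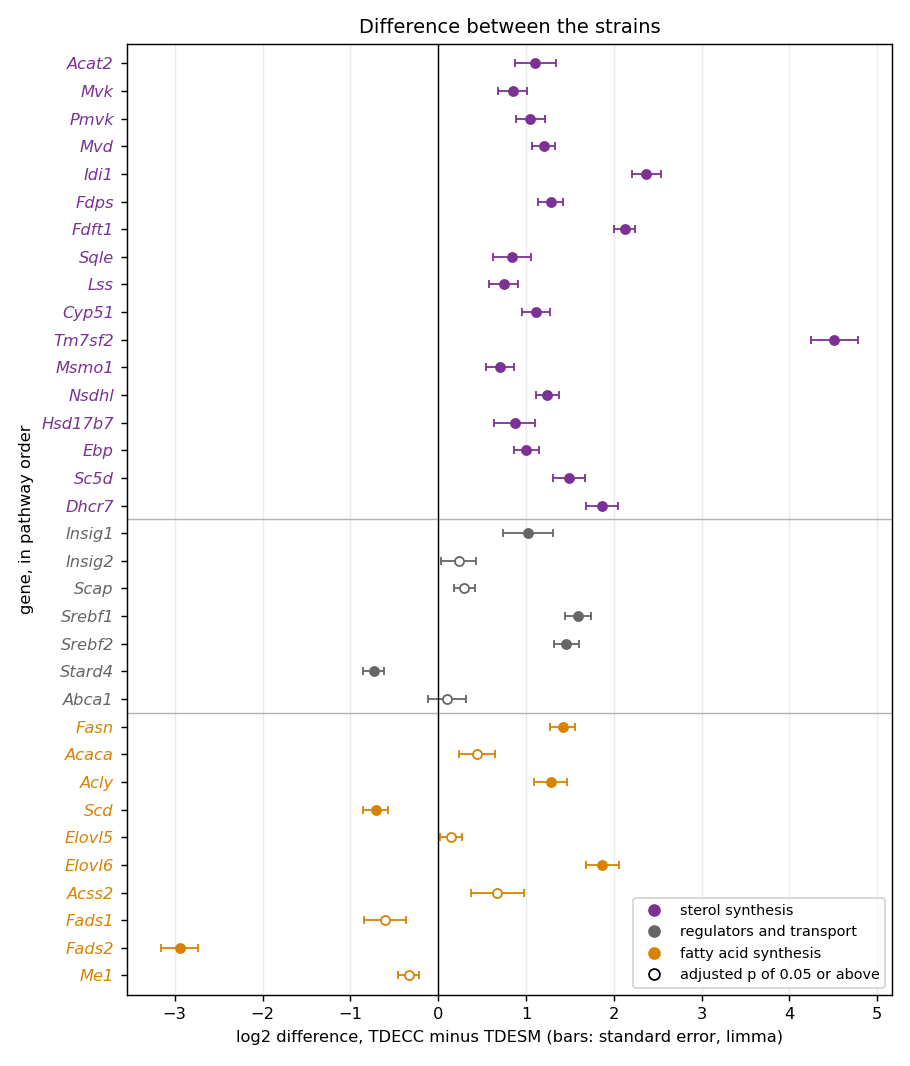
Log2 difference of each measured gene, TDECC minus TDESM, with its limma standard error, coloured by arm; open circles did not pass an adjusted p of 0.05. All 17 sterol enzymes lie right of 0 with Tm7sf2 farthest out at 4.51, while the fatty acid arm runs from -2.94 for Fads2 to 1.87 for Elovl6.

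Because the sterol enzymes were higher together, the sequence before their gene starts is shown for 4 of them, Idi1, Tm7sf2 and Dhcr7 for their large differences and Nsdhl for its repeated motif. RefSeq start sites in the GRCr8 rat assembly were found for 27 of the 34 measured genes. Each stretch is the 150 bases before the start, read 5′ to 3′ on the strand of the gene, and capitals mark CCAAT or its reverse complement ATTGG, the letters bound by NF-Y, a known partner of SREBP.
Idi1, chr17:66547525-66547674, minus strand: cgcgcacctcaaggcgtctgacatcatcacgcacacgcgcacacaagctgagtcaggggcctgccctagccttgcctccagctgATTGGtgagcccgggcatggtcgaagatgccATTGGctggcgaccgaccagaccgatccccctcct
Tm7sf2, chr1:212789542-212789691, minus strand: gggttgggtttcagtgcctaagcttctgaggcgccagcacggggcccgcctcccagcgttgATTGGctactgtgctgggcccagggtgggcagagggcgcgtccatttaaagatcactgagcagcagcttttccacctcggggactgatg
Nsdhl, chrX:155817210-155817359, plus strand: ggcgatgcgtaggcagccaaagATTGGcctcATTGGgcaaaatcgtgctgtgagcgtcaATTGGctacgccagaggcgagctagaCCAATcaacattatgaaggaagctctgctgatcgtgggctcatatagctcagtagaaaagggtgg
Dhcr7, chr1:208444284-208444433, plus strand: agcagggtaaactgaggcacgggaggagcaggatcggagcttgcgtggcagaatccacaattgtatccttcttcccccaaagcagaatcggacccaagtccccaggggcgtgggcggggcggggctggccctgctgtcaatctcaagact

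The stretch of Idi1 holds 2 matches, that of Tm7sf2 1, that of Nsdhl 4 and that of Dhcr7 0. Over the 250 bases before the start, on both strands, CCAAT was found in 11 of 14 sterol arm promoters (78.6%), 4 of 6 of the regulators and 4 of 7 of the fatty acid arm, against 35.1% of 11733 promoters of genes on the array. The GC box GGGCGG, bound by Sp1, was found in 12 of 14 sterol arm promoters and in 54.2% of those of array genes. The sterol regulatory element as TCACNCCAC was found in 0 of 27 member promoters and in 0.980% of those of array genes. Its shorter core CACNCCAC, which lies within the longer form, was found in 5 of 27, those of Acat2, Ebp, Insig1, Elovl5 and Fads1, against 5.20%. These are matches of letters in a fixed window, and no binding was measured.

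Both SREBP genes were higher in TDECC. Srebf1, whose products mainly drive fatty acid enzymes, read 10.37, 10.55 and 10.57 in TDECC and 8.68, 8.96 and 9.08 in TDESM. It differed by 1.59 (SE 0.15, limma adjusted p = 1.46e-04), a 3.01-fold difference, and by 1.5 in its other probe set. Srebf2, whose product mainly drives sterol enzymes, read 9.78, 10.12 and 10.19 in TDECC and 8.51, 8.63 and 8.57 in TDESM, a difference of 1.46 (SE 0.14, limma adjusted p = 2.11e-04). Neither gene overlapped between the strains. The second probe set of Srebf2 read 4.31 and 4.17 and did not differ beyond its spread.

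The genes that hold SREBP back or escort it were mixed. Insig1, itself a target of SREBP, read 10.60, 11.62 and 11.60 in TDECC and 10.29, 10.36 and 10.09 in TDESM. One TDECC array, the first, was thus near the TDESM arrays, and the difference was 1.03 (SE 0.28, limma adjusted p = 0.0239). Insig1 did not pass when TDECC replicate 2 or 3 was left out (adjusted p = 0.0660 and 0.0687), nor when any TDESM array was, in order of replicate (adjusted p = 0.0682, 0.0634 and 0.0898). Over all alternatives its adjusted p ran from 5.66e-09, with poly-A centring, to 0.0898. Without TDECC replicate 1 the difference was 1.36. Insig2, the related gene, was at 8.14 ± 0.36 and 7.90 ± 0.11 (SD, n = 3 each) with overlapping values, and Scap at 9.49 ± 0.05 and 9.19 ± 0.14. Neither passed (limma adjusted p = 0.394 and 0.0922), and the other probe set of Scap gave -0.29.

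The sterol carriers gave no single direction. Stard4, which moves cholesterol between membranes, read 7.69, 7.52 and 7.66 in TDECC and 8.35, 8.26 and 8.46 in TDESM by its brightest probe set, a difference of -0.73 (SE 0.12, limma adjusted p = 0.00237). Its next probe set read 7.37, 7.87 and 8.02 in TDECC and 6.83, 6.82 and 6.64 in TDESM, a difference of 0.99 that also passed, adjusted over probe sets (limma adjusted p = 0.00525). The probe sets of Stard4 therefore contradict each other, their mean gave 0.12, and no direction can be read for the gene. Abca1, which exports cholesterol and responds to sterol excess, read 8.2, 7.42 and 8.10 in TDECC and 7.69, 7.85 and 7.87 in TDESM, overlapping. Its difference of 0.10 became -0.04 without TDECC replicate 1, and its 4 probe sets ran from -0.25 to 1.08. Of the 7 regulators and carriers 3 were called higher and 1 lower, against 20.6% and 22.1% of all genes. Their median difference was 0.30. The 1 lower call was that of Stard4, for which no direction can be read. Among the 3 higher calls, that of Insig1 was lost with most single arrays left out.

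**Figure D3:**
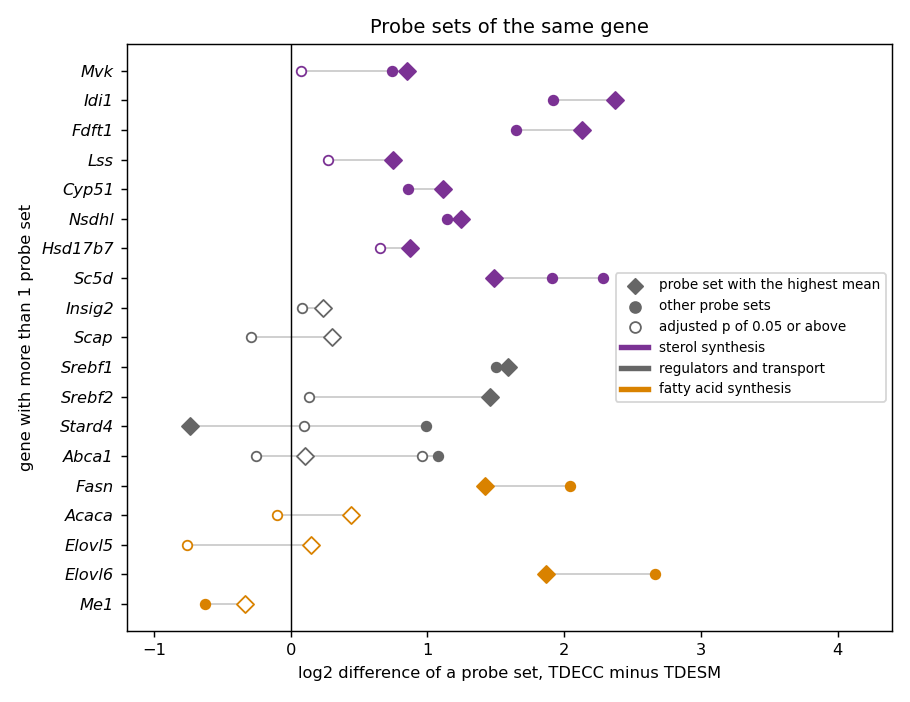
Log2 difference of every probe set of the 19 genes that had more than 1, TDECC minus TDESM; diamonds are the probe set used for the gene and open symbols did not pass an adjusted p of 0.05 over all probe sets. In the sterol arm every symbol lies right of 0, whereas Stard4 has called probe sets on both sides, at -0.73 and 0.99.

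Read by probe set in place of gene, 24 of 27 probe sets of the sterol arm were called higher and 0 lower, where 36.9% of all probe sets were called, 19.0% higher and 17.9% lower. The other 3, of Mvk, Lss and Hsd17b7, had positive differences of 0.08, 0.27 and 0.65. The 16 probe sets of regulators and carriers gave 6 higher and 1 lower, and the 15 of the fatty acid arm 5 higher and 3 lower. Of the 19 genes with more than 1 probe set, 14 had a single sign in all of them.

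The fatty acid arm had no common direction. Of its 10 genes 3 were called higher in TDECC (Acly, Fasn and Elovl6), 2 lower (Scd and Fads2) and 5 not, with a median of 0.29. These counts are near the background, in which 20.6% of all genes were higher and 22.1% lower, so they are no result about the arm as a group and the genes are given one by one. Acly, which makes cytosolic acetyl-CoA from citrate, read 11.90, 11.95 and 12.54 in TDECC and 10.77, 10.86 and 10.91 in TDESM, a difference of 1.28 (SE 0.19, limma adjusted p = 0.00153). Fasn, the fatty acid synthase, read 12.25, 11.87 and 12.28 in TDECC and 10.65, 10.73 and 10.77 in TDESM. It differed by 1.42 (SE 0.15, limma adjusted p = 2.70e-04) and by 2.04 in its other probe set. Elovl6, which lengthens the product of Fasn, read 10.14, 10.57 and 10.40 in TDECC and 8.77, 8.54 and 8.19 in TDESM, a 3.66-fold difference (1.87, SE 0.19, limma adjusted p = 2.46e-04). In none of these did any TDECC array reach down to a TDESM array.

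Other suppliers of that chain did not pass. Acaca, the carboxylase that commits acetyl-CoA to fatty acids, read 9.54, 8.78 and 9.16 in TDECC and 8.60, 8.72 and 8.84 in TDESM, overlapping, with a difference of 0.44 (limma adjusted p = 0.130). It passed without TDECC replicate 2 (0.63, adjusted p = 0.0250). Acss2, which makes acetyl-CoA from acetate, read 9.19, 9.94 and 8.66 in TDECC and 8.54, 8.60 and 8.63 in TDESM. Its TDECC arrays were spread widely around a difference of 0.67 (limma adjusted p = 0.119), and it passed without TDECC replicate 3 (0.98, adjusted p = 0.0181). Over all alternatives the adjusted p ran from 2.06e-05 to 0.405 for Acaca and from 1.07e-06 to 0.249 for Acss2. For both genes the lower end came from poly-A centring. Me1, the malic enzyme that supplies NADPH, was at 9.55 ± 0.09 in TDECC and 9.89 ± 0.13 in TDESM (SD, n = 3 each). It did not pass (-0.34, limma adjusted p = 0.0669), though its other probe set did at -0.63.

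Fads2, the desaturase that opens the route to polyunsaturated fatty acids, went furthest the other way. It read 4.56, 4.37 and 4.68 in TDECC and 7.27, 7.25 and 7.92 in TDESM, a difference of -2.94 (SE 0.21, limma adjusted p = 3.85e-05). The groups lay far apart for Fads2. Its TDECC mean of 4.54 was close to the 4.16 of Alb, a liver gene, in the same strain, and without detection calls it is not shown to be above background, so no fold is given. The difference of Fads2 was -2.55 centred on housekeeping genes and -1.72 centred on the poly-A controls. Fads1, the desaturase that follows it, read 10.49, 9.78 and 9.61 in TDECC and 10.41, 10.70 and 10.59 in TDESM. The first TDECC array lay among the TDESM values, and the difference of -0.61 did not pass (limma adjusted p = 0.0827) except without that array (-0.87, adjusted p = 0.00325; 0.00325 to 0.40 over all alternatives). Centred on the poly-A controls its sign turned, to 0.62. Elovl5, the elongase of the same route, was at 11.76 ± 0.14 and 11.61 ± 0.03 (SD, n = 3 each) and did not pass (limma adjusted p = 0.388).

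Scd, which desaturates saturated chains, read 3.23, 3.53 and 3.29 in TDECC and 4.06, 4.22 and 3.90 in TDESM. All 6 values were near the bottom of the arrays, at percentile 7.80 of all genes by mean level, and the called difference was -0.71 (SE 0.14, limma adjusted p = 0.00642). The sign became positive (0.51) with poly-A centring, and with housekeeping centring the gene did not pass (-0.32, adjusted p = 0.126). Scd2, a closely related desaturase outside the set that was looked up after the Scd values were seen, read 13.21, 13.20 and 13.58 in TDECC and 11.68, 11.75 and 11.65 in TDESM. That form was high in both strains and higher in TDECC, by 1.64 (SE 0.14, limma adjusted p = 1.13e-04), or 1.21 after averaging its probe sets. Scd2 and Fads2, desaturases of different chains, thus differed in opposite directions. Groups in the fatty acid arm did not overlap for 5 genes with higher TDECC values and 3 with lower ones, against 26.4% and 27.3% of all genes.

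**Figure D4:**
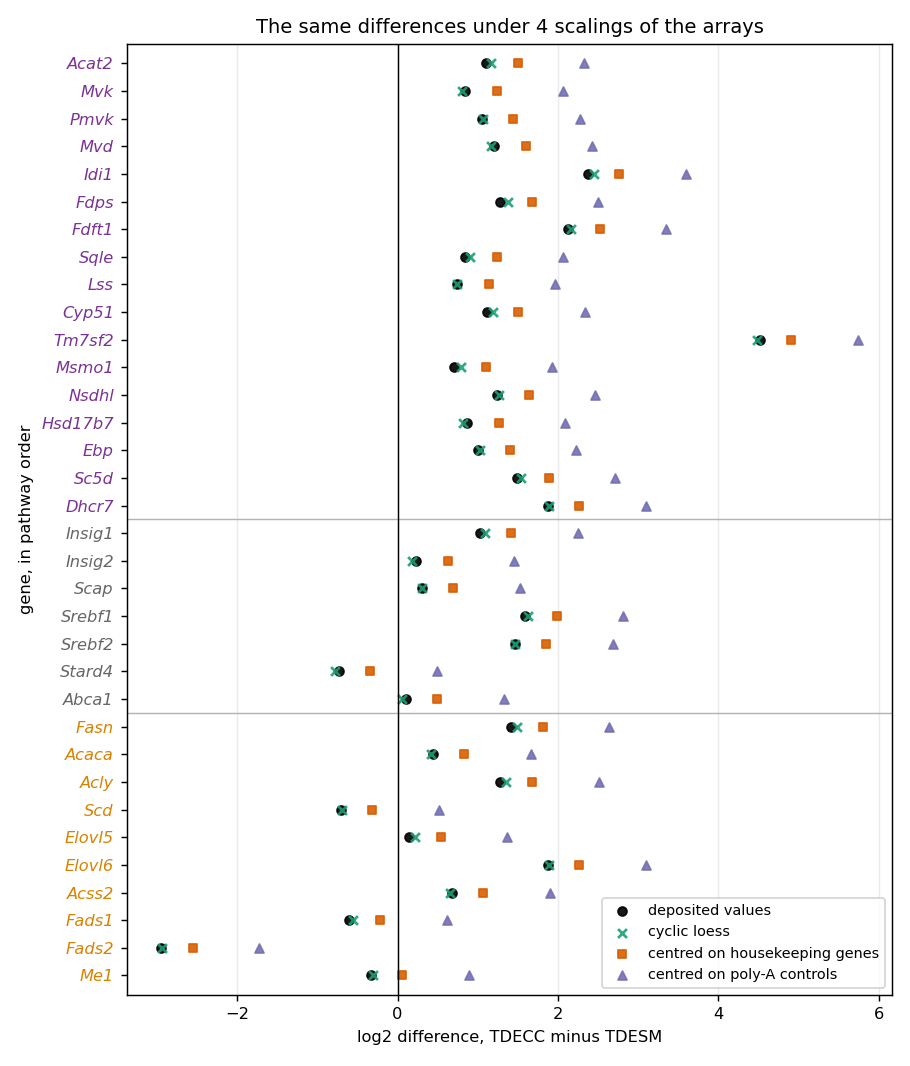
Log2 difference of each measured gene, TDECC minus TDESM, from the deposited values, after cyclic loess, and with arrays centred on housekeeping genes or on poly-A controls. The sterol enzymes lie right of 0 under all 4, with a lowest value of 0.70, and Fads2 lies left of 0 under all 4, while Stard4, Scd, Fads1 and Me1 change side.

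Within TDECC most sterol genes, though not all, moved together from array to array. On TDECC replicate 1, 14 of 17 sterol genes lay below their strain mean, with a median deviation of -0.18, where 44.1% of all genes did so and the median gene deviated by 0.03. The same array held the lowest of the 3 TDECC values for 12 of the 17, against 27.9% of all genes, and the highest for 2. On TDECC replicate 3, 14 of 17 lay above the mean (median 0.12), and on replicate 2, 11 did, against 45.6% and 44.3% of all genes. The deviations of a gene within a strain cancel out, so these counts follow in part from replicate 1. Of the 7 regulators and carriers 5 lay below on replicate 1 and 6 above on replicate 3, against 44.1% and 45.6% of all genes. Stard4 and Abca1 were highest on replicate 1. Fatty acid genes did not follow the sterol genes: on replicate 1, 5 lay above and 5 below. In TDESM the medians of the sterol genes stayed between -0.03 and 0.05. Without TDECC replicate 1 the median difference of the sterol arm was 1.23, and all 17 were called. These deviations are a description of 3 arrays, and whether they reflect culture or handling was not tested.

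**Figure D5:**
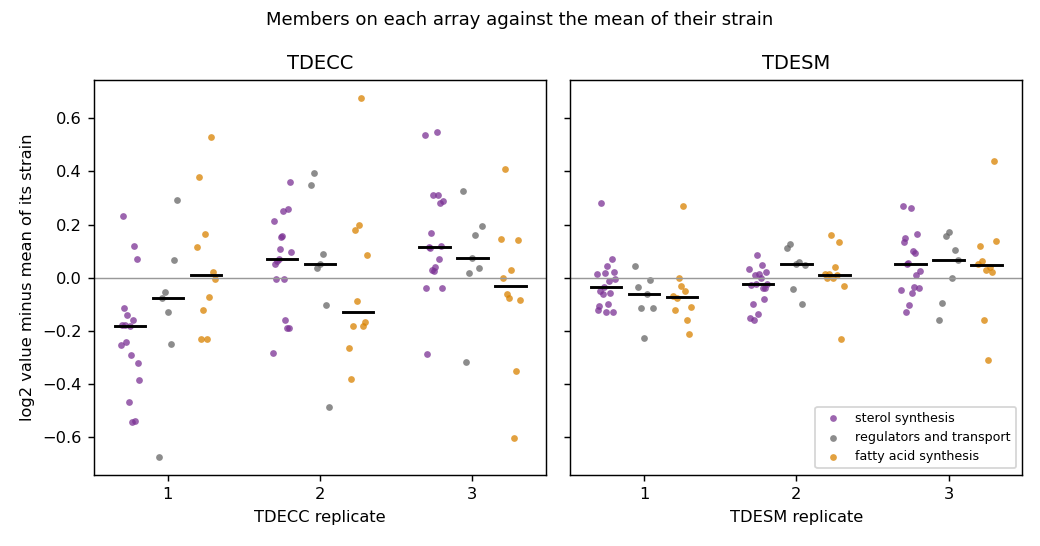
Log2 value of each measured gene minus the mean of its strain, by array and arm, with the median of each arm as a black bar. In TDECC the sterol genes sit mostly below 0 on replicate 1 (median -0.18) and mostly above it on replicate 3 (median 0.12), while TDESM arrays differ less.

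Neighbouring pathways gave the surroundings of these genes, and their counts are read against all genes. Of all genes 20.6% were called higher and 22.1% lower. With housekeeping and poly-A centring 44.3% and 76.5% were called higher. Counts near those shares are no result about a pathway. Of 8 measured genes of the isoprenoid branch, which turns farnesyl diphosphate into ubiquinone, dolichol and protein anchors, 3 passed as higher in TDECC and 1 as lower, and the median difference was -0.12. Coq2 and Pdss2, of ubiquinone synthesis, differed by 0.73 and 0.62, and Pggt1b, a subunit of geranylgeranyl transferase, by -0.99, or 0.23 centred on the poly-A controls. Coq2 did not pass when TDESM replicate 1 or 2 was left out (adjusted p = 0.0724 and 0.0692). Over all alternatives its adjusted p ran from 4.90e-07, with poly-A centring, to 0.0724. Pdss2 did not pass after cyclic loess (adjusted p = 0.0509), nor when TDECC replicate 2 or 3 (adjusted p = 0.0638 and 0.0754) or TDESM replicate 1 or 2 was left out (adjusted p = 0.118 and 0.121). Its lowest adjusted p over all alternatives was 2.29e-06, with poly-A centring. The number of branch genes passing as higher was 6 with poly-A centring, 1 without TDECC replicate 2 or TDESM replicate 1 and 0 without TDESM replicate 2. Calls over all genes fell too: 20.1% were higher without TDECC replicate 2. Without TDESM replicate 1 and 2 the shares were 15.6% and 15%. Why branch genes lost their calls was not tested. The number passing as lower was 3 without TDECC replicate 2, 2 after averaging probe sets and 0 with poly-A centring. In the same settings 2968, 3155 and 898 of the 14217 genes passed as lower.

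Of 8 measured genes of SREBP processing and sterol sensing 3 passed as higher and 0 as lower (median 0.21). The shares of all genes were 20.6% and 22.1%. The 3 were Mbtps2, a protease that frees SREBP, and Erlin1 and Erlin2, which bind sterol-regulated proteins in the endoplasmic reticulum. Erlin1 differed by 1.04 and Erlin2 by 0.83. Erlin2 did not pass when TDESM replicate 2 or 3 was left out (adjusted p = 0.0543 and 0.0528). Neither did Mbtps2 (adjusted p = 0.0653 and 0.0581), which left 1 of the 3, where 15% and 16.4% of all genes were called higher. The lowest adjusted p of Erlin2 over all alternatives was 1.11e-07, with poly-A centring. With housekeeping and poly-A centring 5 and 7 of the 8 passed as higher, against 44.3% and 76.5% of all genes. Without TDECC replicate 3, 2 passed as lower, as did 3045 of the 14217 genes. Of 16 genes of cholesterol storage, transport and oxysterol response 4 passed as higher and 3 as lower (median 0.17). These counts are near the shares of all genes, so they are no result about the list. Cyp27a1, which oxidises cholesterol towards bile acids, differed by 2.38 and Lpcat3, a phospholipid acyltransferase, by 1.01. The 4 became 9 with housekeeping centring and 13 with poly-A centring, against the same 44.3% and 76.5% of all genes. Lower in TDECC were Lipa, the lysosomal acid lipase that frees cholesterol from imported esters (-1.68, SE 0.12), and Npc2, which carries that cholesterol out of the lysosome (-1.44, SE 0.16). Centred on the poly-A controls Lipa and Npc2 did not pass (-0.46 and -0.22, adjusted p = 0.233 and 0.569, the highest over all alternatives).

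Of 17 other genes of fatty acid synthesis, elongation and activation 7 passed as higher and 1 as lower (median 0.16). The shares of all genes were 20.6% and 22.1%. Mid1ip1, an activator of acetyl-CoA carboxylase, differed by 1.99 and Acsl3, which activates fatty acids for lipid droplets, by 1.96; Slc25a1, the mitochondrial citrate carrier that supplies Acly, was also higher, by 1.12. Hsd17b12, an elongation enzyme, differed by -0.93, or 0.30 centred on the poly-A controls. With housekeeping and poly-A centring 11 and 15 of these 17 passed as higher, against 44.3% and 76.5% of all genes. Of 13 glycerolipid and lipid droplet genes 6 passed as higher and 1 as lower (median 1.10), against the same 20.6% and 22.1%. Plin2, the coat protein of lipid droplets, read 11.70, 12.03 and 11.11 in TDECC and 6.25, 6.67 and 6.23 in TDESM, a 37.5-fold difference (5.23, SE 0.25, limma adjusted p = 5.63e-06). Its TDESM values too are not shown to be above background. Dgat2, which makes triglyceride, differed by 3.61 (SE 0.36) and its isoenzyme Dgat1 by -0.62, or 0.61 centred on the poly-A controls. With poly-A centring 12 of the 13 droplet genes passed as higher, against 76.5% of all genes. The difference of Plin2 was 3.998 when its probe sets were averaged, below the 4.51 of Tm7sf2 in the same setting.

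Of 13 genes of fatty acid oxidation 1 passed as higher and 3 as lower (median -0.12), against 20.6% and 22.1% of all genes. The higher one was Cpt1a, which admits fatty acids to mitochondria, at 11.83, 12.46 and 12.25 in TDECC and 8.18, 8.33 and 8.52 in TDESM, a 14.3-fold difference (3.84, SE 0.19, limma adjusted p = 6.19e-06). Lower were Slc25a20, the carrier that takes acylcarnitine across the inner membrane (-1.10), Eci1 (-1.15) and Cpt2. With poly-A centring Slc25a20 turned to 0.12, Eci1 to 0.07 and Cpt2 to 0.59. In that setting 10 of the 13 passed as higher, against 76.5% of all genes. With housekeeping centring 5 did, against 44.3%, and 1 passed as lower, as did 2104 of the 14217 genes. Without TDECC replicate 1, 3 genes of oxidation passed as higher, and without TDESM replicate 3, 2 did, against 21.2% and 16.4% of all genes. Eci1 did not pass when TDECC replicate 1 or 2 was left out (adjusted p = 0.0633 and 0.0811), when any TDESM array was, in order of replicate (adjusted p = 0.0769, 0.0842 and 0.0980), after averaging its probe sets (adjusted p = 0.0759) and centred on housekeeping genes (adjusted p = 0.110; 3.36e-04 to 0.857 over all alternatives).

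Markers of other cell types were checked beside these results. Their counts stand against 20.6% of all genes called higher and 22.1% lower. With 5 or 6 genes measured per list, such counts show neither presence nor absence of a cell type. Of 6 adipocyte markers 0 were called in limma, 0 had an unadjusted p below 0.05, and 5 had means below 5 in both strains, while Fabp4 read 4.79, 13.41 and 5.93 in TDECC and 3.63 to 3.79 in TDESM. Without TDECC replicate 1, 2 adipocyte markers passed as higher, and without TDECC replicate 2, 1 did, against 21.2% and 20.1% of all genes. The mean level of that list was 3.95, 5.81 and 4.42 on the TDECC arrays and 3.81 to 3.90 on the TDESM arrays. TDECC replicate 2, the array with high Fabp4, also had the highest Plin2 and Dgat2 values; without it Dgat2 differed by 3.21 and Plin2 by 5.02, and 16 of 17 sterol genes were called with a median of 1.21. Of 6 hepatocyte markers 1 was called, Serpina1 (4.32, 6.38 and 5.97 in TDECC and 3.93 to 4.17 in TDESM; not passing without TDECC replicate 2 or 3 or any TDESM array, adjusted p from 0.10 to 0.127), and Alb stood at 4.16 and 4.46. The mean level of the hepatocyte list was 4.71 to 5.05 on the TDECC arrays and 4.60 to 4.91 on the TDESM arrays. The leukocyte list had 0 limma calls of 6, with 1 unadjusted p below 0.05, that of Cd14, which read 8.65, 10.88 and 11.64 in TDECC and 8.63 to 8.90 in TDESM. It was thus raised on 2 of the 3 TDECC arrays, and without TDECC replicate 1, 1 leukocyte marker passed as higher, against 21.2% of all genes. The mean level of the leukocyte list was 4.97 to 5.66 on the TDECC arrays and 5.03 to 5.25 on the TDESM arrays. The endothelial list had 1 call of 5, Pecam1 at 3.80 and 3.43 (not passing without the same arrays, adjusted p from 0.0848 to 0.132), and mean levels of 3.95 to 4.11 and 3.94 to 3.96. The part of such markers in the sterol differences was not tested, and in bulk RNA fewer expressing cells and less RNA per cell cannot be told apart.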

How the data were processed

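Total RNA of 3 TDECC and 3 TDESM samples was labelled with biotin and hybridised to Affymetrix rat arrays, per the labels' protocols. The authors deposited log2 probe set values; RMA is the method that the submitters' processing notes name, without a version. The table holds no detection calls. Of 31099 probe sets 57 were controls; 20826 named 1 symbol, 436 several and 9780 others were unlisted. Gene identifiers of 99.7% of the named were found in the RefSeq table of GRCr8, and 0 symbols changed.

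A gene was its probe set with the highest mean, with no filter on dim genes. All 14217 genes were fitted with limma 3.58.1 in R 4.3.3 (lmFit and eBayes, TDECC minus TDESM). Tests were two-sided, p-values were adjusted by Benjamini-Hochberg across the 14217 genes, and calls needed a value below 0.05. The limma step was tested first on simulated data with 200 changed genes. It recovered 55% of changes of log2 1 and 87% of changes of log2 2, and 6.58% of its calls fell on unchanged genes. A gene that did not pass may therefore still differ. The number of arrays limits the precision. The members, context lists and markers were chosen with earlier results of these data known. Named were every measured member and, from each context list, up to 2 genes each way with the largest called, non-overlapping differences; Mbtps2, Cpt2, Slc25a1, Scd2, Lbr, Fabp4, Serpina1, Alb, Cd14 and Pecam1 were added after their values were seen. Promoter letters come from RefSeq, GRCr8. Alternatives are in the closing section.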

Additional observations from a re-analysis of the deposited data

How the results depend on the processing

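Alternatives were cyclic loess, centring on 10 housekeeping genes or 24 poly-A control probe sets, dropping the dimmest genes, averaging the probe sets of a gene, probe sets in place of genes, eBayes with trend and robust, the replicate block, and each array left out. The count of sterol genes higher in TDECC was 15 to 17 with an array left out, 16 with the mean of probe sets and 17 otherwise. Genes called higher numbered 6301 centred on housekeeping genes, 10873 on poly-A controls and 5911 by probe set, and 2131 to 3035 with an array left out; those called lower numbered 898 on poly-A controls, 5559 by probe set and 2474 to 3425 with an array left out. Regulators called higher were 5 on housekeeping genes and 6 on poly-A controls (2 to 3 with an array left out), and those called lower were 0 under both and with the mean of probe sets. Fatty acid genes called higher were 6 and 7 (3 to 4 with an array left out), and those called lower were 1 under both and without the dimmest genes (2 to 3 with an array left out). Signs turned centred on the poly-A controls for Stard4 (0.49), Scd (0.51), Fads1 (0.62), Me1 (0.89), Eci1 (0.071), Slc25a20 (0.12), Dgat1 (0.61), Pggt1b (0.23), Cpt2 (0.585) and Hsd17b12 (0.30). They also turned for Me1 on housekeeping genes (0.057), for Stard4 (0.12) and Elovl5 (-0.31) with the mean of probe sets, for Abca1 without TDECC replicate 1 (-0.043; up to 0.347 with another array left out) and for Lbr without TDECC replicate 3 (-0.11; up to 0.455). Centring moves every gene by 1 value per array; the cause of the other changes was not tested. Replicate numbers showed no sign of pairing the arrays: deviations of same-numbered arrays correlated at -0.067, 0.022 and -0.143. Such correlations cannot exclude a pairing. With the replicate block 2592 genes were called higher and 2750 lower, and every measured member stayed on its side of the threshold. With no detection calls, differences between dim genes such as Scd are limited by background.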
